A study of Mus musculus with 18 samples.

Results

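The genes described here are the matrix metalloproteinases (MMPs), the ADAMs, the ADAMTS and ADAMTS-like proteins, and the tissue inhibitors of metalloproteinases (TIMPs). Their probe sets were taken as those on the arrays whose annotation gives 1 single gene symbol that starts with Mmp, Adam or Timp and a digit, or with Adamts. By this rule there were 91 probe sets of 36701, for 58 genes of 15964. Of the probe sets, 43 lay on the chip type MG_U74Av2, 28 on MG_U74Bv2 and 20 on MG_U74Cv2. The rule used no measured value.

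The study profiled clones of stromal cells, the adherent fibroblast-like cells of adult mouse marrow, each raised from a single cell in a serum-containing medium. There were 6 RNAs, 3 of CD34+ clones and 3 of CD34- clones, and each was hybridised to 1 Affymetrix array of all 3 chip types, 18 arrays in total. CD34 is a mucin-like surface protein of blood progenitors and vessel walls, and it was the marker used to judge purity by flow cytometry. No treatment, time point or genetic change is named for either group, and the labels give neither strain nor age. It is not stated whether the 3 RNAs of 1 group were drawn from separate clones or cultures. The p-values therefore reflect the spread among these 6 RNAs, possibly a technical one, and an effect of the particular clone cannot be told apart from an effect of CD34. In bulk RNA, fewer cells that express a gene and less RNA per cell cannot be told apart either.

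MMPs are zinc proteases that cut collagens and other proteins of the extracellular matrix, some after secretion and some as membrane proteins. ADAMs are membrane proteins that release the outer parts of growth factors, receptors and adhesion molecules from the cell surface, and ADAMTS proteases are secreted and cut proteoglycans and procollagens. TIMPs bind the active site of these proteases and block it. In marrow, stromal and bone-forming cells are a main source of MMPs and TIMPs, which take part in the turnover of bone and marrow matrix.

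Levels are given as signals after quantile normalization (intensity units), for RNA 1, 2 and 3 of each group in that order, and averages are means ± SD over n = 3 RNAs. Differences are CD34+ minus CD34- on the scale log2(signal + offset), where the offset was 51.5, 106 and 97.9 on the 3 chip types. This scale makes changes of dim probe sets look smaller. A probe set was tested where it lay above the 40th percentile of its array on at least 3 of 6 arrays. It was called where limma, fitted over all tested probe sets of the chip type, gave a Benjamini-Hochberg adjusted p under 0.05. The median difference of all tested probe sets was 0.01 on MG_U74Av2, 0.00 on MG_U74Bv2 and -0.00 on MG_U74Cv2. Cd34 itself was read by a pair of probe sets, which were higher in the CD34+ RNAs by 2.50 and 2.39 on the log2 scale (limma adjusted p = 0.000374 and 0.000334). The correlation of arrays within a group was 0.970 to 0.979 for MG_U74Av2. It was 0.915 to 0.941 for MG_U74Bv2 and 0.884 to 0.908 for MG_U74Cv2. The number of arrays limits the precision, and changes are least well resolved on MG_U74Cv2.

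Of the 91 probe sets, 45 passed the filter, for 35 genes. On MG_U74Av2, 6 of 17 tested probe sets fell in the CD34+ RNAs and 0 rose. Over all probe sets of that chip type, 6.69% were called as lower and 8.21% as higher (14.9% in all). The 6 were those of Mmp14, Mmp11, Mmp13, Timp3, Timp2 and Adam9, of which Mmp13 passed the filter only through the CD34- arrays. Under another scaling with its own offset, described with the TIMPs, 4 fell and 2 rose. In that setting 279 of all 7634 tested probe sets of MG_U74Av2 fell and 2750 rose (39.7% called in all). Under the same scaling with no offset 6 fell and 0 rose, with Adam5 in place of Adam9. There 412 of the 7634 fell and 559 rose (12.7% in all). On MG_U74Bv2 limma called 0 of 16, where 0.401% of all probe sets were called as lower and 0.685% as higher (1.09% in all), and 3 of the 16 had an unadjusted p under 0.05. On MG_U74Cv2 it called 0 of 12, where 0.0535% of all were called as lower and 0.0401% as higher (0.0936% in all). Of these 12, 0 had an unadjusted p under 0.05, and of the 17 on MG_U74Av2 8 did. The share of all probe sets with an unadjusted p under 0.05 is not given here, so these counts stand without a background. The median difference of the tested members was -0.37, -0.07 and 0.05 on the 3 chip types.

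**Figure D1:**
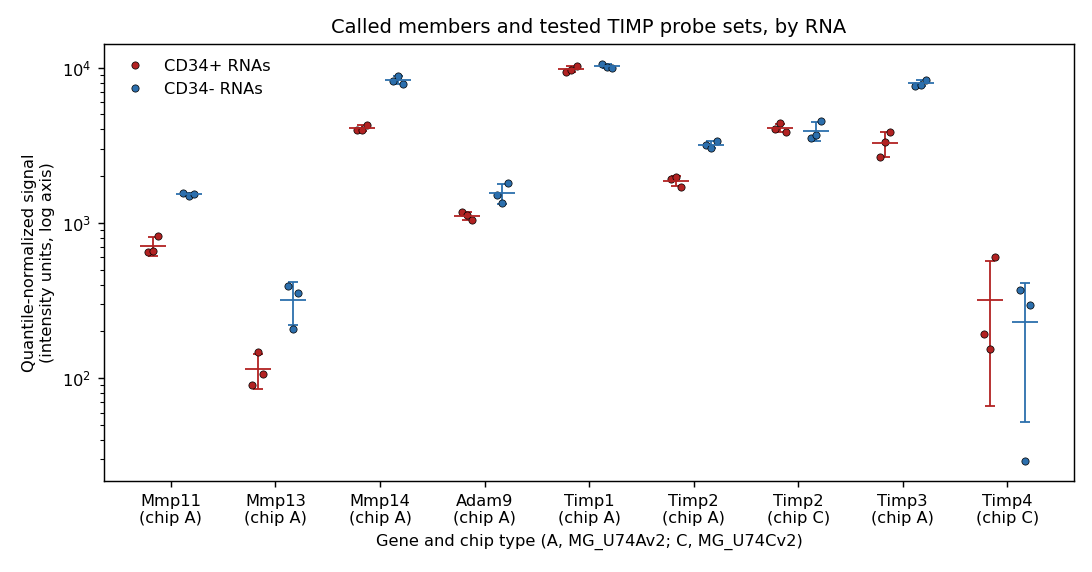
Quantile-normalized signal (intensity units, log axis) of the 6 called probe sets and of all tested TIMP probe sets, with 1 point per RNA and a bar for mean ± SD (n = 3). In the called probe sets every CD34+ point (red) lies below every CD34- point (blue), while the groups overlap for Timp1, for Timp2 on MG_U74Cv2 and for Timp4.

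The promoters of the called genes are shown because their transcripts were lower together in the CD34+ RNAs, and that of Timp1 because its transcript was not called. RefSeq promoters (build GRCm38.p6, 250 bases before to 50 bases after the gene start) were matched for 34 of the 58 genes and for 5 of the 6 called ones, and Adam9 is named only. Capitals mark matches, on either strand, to 4 short motifs, with any overlap between matches allowed. The AP-1 motif was searched as TGANTCA. The GC box was searched as GGGCGG. For RUNX factors the letters were ACCACA. The TATA box was searched as TATAAA. The sequences run 5′ to 3′ on the strand of the gene, from chr9:7272264-7272563 for Mmp13, chr10:75932453-75932752 for Mmp11, chr14:54431348-54431647 for Mmp14, chr10:86300162-86300461 for Timp3, chr11:118355362-118355661 for Timp2 and chrX:20869916-20870215 for Timp1 (strand + for Mmp13, Mmp14, Timp3 and Timp1, strand - for Mmp11 and Timp2).
Mmp13: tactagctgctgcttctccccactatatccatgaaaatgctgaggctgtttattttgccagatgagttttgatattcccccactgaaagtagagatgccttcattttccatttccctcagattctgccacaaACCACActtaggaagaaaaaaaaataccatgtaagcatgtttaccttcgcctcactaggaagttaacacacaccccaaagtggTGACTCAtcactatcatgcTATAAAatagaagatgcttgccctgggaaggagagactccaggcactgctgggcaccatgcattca
Mmp11: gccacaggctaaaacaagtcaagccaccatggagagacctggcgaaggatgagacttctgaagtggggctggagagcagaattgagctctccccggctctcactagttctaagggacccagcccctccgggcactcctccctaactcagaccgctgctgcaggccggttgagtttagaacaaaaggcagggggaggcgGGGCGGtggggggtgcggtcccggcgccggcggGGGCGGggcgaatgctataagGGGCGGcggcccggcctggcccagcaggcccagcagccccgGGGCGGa
Mmp14: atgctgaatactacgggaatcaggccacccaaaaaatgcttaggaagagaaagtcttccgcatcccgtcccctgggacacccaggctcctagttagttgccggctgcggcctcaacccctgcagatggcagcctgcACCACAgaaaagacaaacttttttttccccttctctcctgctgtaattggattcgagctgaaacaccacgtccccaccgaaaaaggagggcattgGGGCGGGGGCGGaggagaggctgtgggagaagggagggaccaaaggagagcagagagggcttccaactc
Timp3: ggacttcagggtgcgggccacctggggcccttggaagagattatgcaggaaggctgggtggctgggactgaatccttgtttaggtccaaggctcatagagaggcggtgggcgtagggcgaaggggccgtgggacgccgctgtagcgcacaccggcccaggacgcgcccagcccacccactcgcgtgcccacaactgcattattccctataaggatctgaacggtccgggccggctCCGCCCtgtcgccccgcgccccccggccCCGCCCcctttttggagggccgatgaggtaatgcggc
Timp2: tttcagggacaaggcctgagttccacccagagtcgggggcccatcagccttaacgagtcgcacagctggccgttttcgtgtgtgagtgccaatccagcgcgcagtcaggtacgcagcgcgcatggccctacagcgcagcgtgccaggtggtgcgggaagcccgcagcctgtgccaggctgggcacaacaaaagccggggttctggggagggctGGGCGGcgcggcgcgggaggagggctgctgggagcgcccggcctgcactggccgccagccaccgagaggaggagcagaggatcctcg
Timp1: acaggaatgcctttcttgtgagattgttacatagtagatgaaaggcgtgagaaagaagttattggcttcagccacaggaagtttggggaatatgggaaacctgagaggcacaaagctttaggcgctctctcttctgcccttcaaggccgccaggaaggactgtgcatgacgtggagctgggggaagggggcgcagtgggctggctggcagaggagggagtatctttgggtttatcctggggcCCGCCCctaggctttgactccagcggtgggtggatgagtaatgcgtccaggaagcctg
The promoter of Mmp13 held an AP-1 motif at -35, a RUNX motif at -118 and a TATA box at -16, counted from the start to the first base of the match, and no GC box. Those of Mmp11, Mmp14, Timp3, Timp2 and Timp1 held 4, 2, 2, 1 and 1 GC boxes, and that of Mmp14 also a RUNX motif at -114. None of the 5 held the AP-1 motif or the TATA box in this window. Over all 32851 promoters of the table, 7.81% held the AP-1 motif, 35.7% a GC box, 16.8% the RUNX motif and 13.6% the TATA box. Among 39 promoters of the 34 matched genes the counts were 7, 20, 8 and 9. A match describes these letters and is no sign that a factor binds.

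Mmp14 encodes MT1-MMP, a membrane-anchored collagenase that also activates the gelatinase Mmp2 with the help of Timp2. It read 3976, 3947 and 4266 in the CD34+ RNAs and 8209.7, 8833 and 7854 in the CD34- RNAs. All CD34+ values lay below all CD34- values. The means were 4063 ± 176 and 8299 ± 495, a difference of -1.02 (SE 0.083, 95% interval -1.21 to -0.83, limma adjusted p = 0.000132).

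Mmp11 is a secreted protease, made mainly by fibroblast-like stromal cells, that is activated inside the cell by furin. Its signals were 647, 662 and 826 in the CD34+ RNAs against 1556, 1485 and 1535 in the CD34- RNAs, with no overlap. The means were 712 ± 99.2 and 1525 ± 36.9, and the difference was -1.05 (SE 0.128, limma adjusted p = 0.000999). The other furin-activated secreted enzyme on the arrays, Mmp28, read 87.2 to 189 and was removed by the filter.

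Mmp13 is the main interstitial collagenase of the mouse, known from bone-forming cells and cartilage. It gave 90.8, 146 and 106 in the CD34+ RNAs and 392, 209 and 353 in the CD34- RNAs. The groups did not overlap, but the probe set passed the filter only through the CD34- arrays, so it had to differ to be tested. The difference was -1.13 (SE 0.271, limma adjusted p = 0.0227), from means of 114 ± 28.8 and 318 ± 96.4. The call rests on several single arrays, since the adjusted p rose to 0.0717 when CD34+ RNA 1 was left out and to 0.0696 when CD34+ RNA 3 was. It was 0.0941 after leaving out CD34- RNA 1 and 0.0603 after leaving out CD34- RNA 3.

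Among the other membrane-type enzymes, Mmp16 (MT3-MMP) had 1346, 1219.7 and 1173 in the CD34+ RNAs and 1119, 776 and 921 in the CD34- RNAs on MG_U74Bv2. It was higher in the CD34+ RNAs without overlap, by 0.38, and was not called (limma adjusted p = 0.326). Its second probe set, on MG_U74Av2, read 36.5 to 141 and was removed by the filter, also with all CD34+ values above all CD34- values. Mmp17 (MT4-MMP), held in the membrane by a lipid anchor, read 110.1, 193 and 174 against 239, 308 and 162, which overlap (difference -0.44, limma adjusted p = 0.327). Mmp24 (MT5-MMP) read 13.4 to 24.9 and was not tested.

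Mmp19 and Mmp23, which belong to no larger subgroup, had the largest differences among the tested members that were not called, in opposite directions. Mmp19, a secreted enzyme of many tissues, read 471, 467 and 619 in the CD34+ RNAs and 1783, 726 and 1743 in the CD34- RNAs. The groups did not overlap, with CD34- RNA 2 close to the CD34+ values. The difference was -1.20 (SE 0.314, limma adjusted p = 0.107), and it was called, at -1.59 and an adjusted p of 0.0189, when CD34- RNA 2 was left out. Mmp23, an unusual member with a membrane anchor at its amino-terminal end, read 1193, 863 and 994 against 208, 553 and 518, higher in the CD34+ RNAs without overlap. Its difference was 1.14 (SE 0.303, limma adjusted p = 0.111).

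The gelatinases and stromelysins were at low signal in both groups. Mmp2, the gelatinase that Mmp14 activates, was read by a pair of probe sets at 9.67 to 158. Mmp9, the other gelatinase, was read by 3 probe sets at 6.07 to 309. The stromelysins Mmp3 and Mmp10 and the matrilysin Mmp7 lay between 2.47 and 80.6, and the collagenase Mmp8 of neutrophils between 11.1 and 48.9. All of these were removed by the filter, whose limit corresponds to a normalized signal of 177 on MG_U74Av2 and 234 on MG_U74Cv2. A low signal of a probe set does not show that a transcript is absent.

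**Figure D2:**
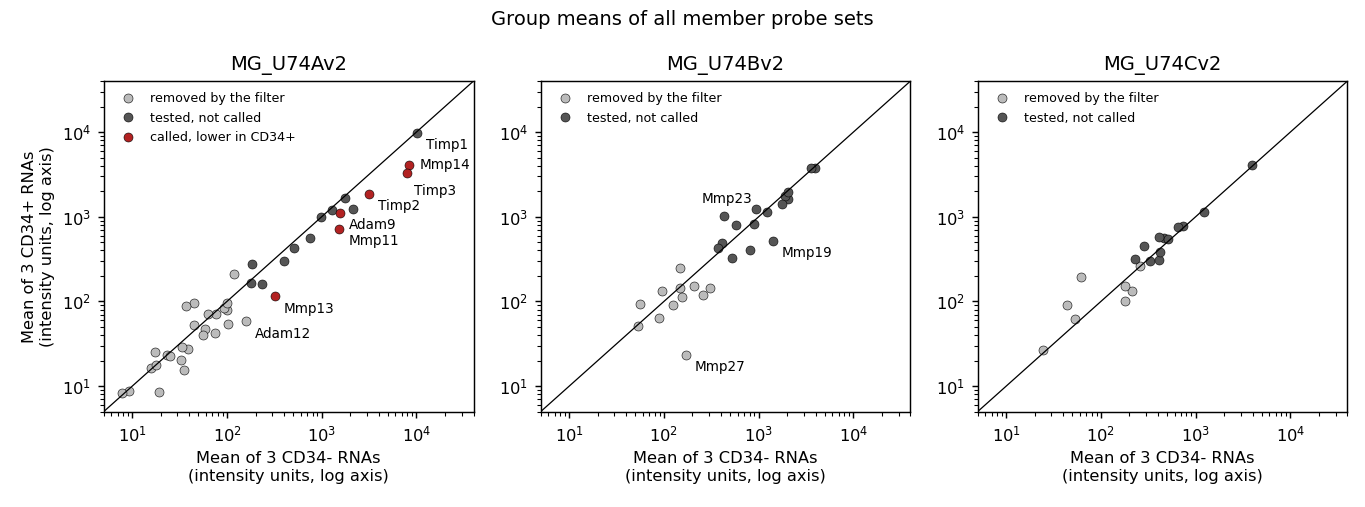
Mean signal of the 3 CD34+ RNAs against that of the 3 CD34- RNAs (intensity units, log axes) for all 91 member probe sets, 1 panel per chip type, with the line of equal signal. The 6 called probe sets (red) lie below the line on MG_U74Av2, and most of the 46 removed ones (light grey) lie at low signal.

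TIMPs differed among themselves. Timp3, the inhibitor that is bound to the matrix and also blocks several ADAMs and ADAMTS proteases, read 2638, 3336 and 3835 in the CD34+ RNAs and 7650.5, 7769 and 8305 in the CD34- RNAs. Its groups lay far apart, at 3269.5 ± 601 and 7908 ± 349. The difference was -1.28 (SE 0.129, 95% interval -1.57 to -0.98, limma adjusted p = 0.000375).

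Timp2, which both inhibits Mmp14 and links it to the precursor of Mmp2, read 1919, 1981 and 1705 against 3158, 3029 and 3366 by a probe set of MG_U74Av2. These values did not overlap and differed by -0.75 (SE 0.102, 95% interval -0.99 to -0.52, limma adjusted p = 0.00174). A second tested probe set, on MG_U74Cv2, read 4049, 4364 and 3866 against 3517, 3670.2 and 4544, which overlap. There the difference was 0.07 (95% interval -0.30 to 0.45, limma adjusted p = 0.937). The probe sets of Timp2 thus disagreed, and because the chip types were normalized separately their disagreement was not tested. The suffix of the MG_U74Cv2 probe set (_i) marks one with fewer gene-specific probes than usual. A further pair, on MG_U74Av2, read 25.1 to 66.0 and 36.0 to 163 and was removed by the filter.

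Timp1, a secreted inhibitor that blocks most soluble MMPs but binds the membrane-type enzymes poorly, read 9377, 9711 and 10258 in the CD34+ RNAs and 10564, 10139.8 and 9928 in the CD34- RNAs. The groups overlapped. The difference was -0.06 (95% interval -0.22 to 0.10, limma adjusted p = 0.607). A second Timp1 probe set read 7.20 to 62.6 and was not tested. Timp4 read 191, 153 and 605 against 367, 29.1 and 294, with wide spread in both groups (difference 0.38, 95% interval -0.97 to 1.73, limma adjusted p = 0.908). Timp1, Timp3 and Timp4 each lie within a synapsin gene (Syn1 on chromosome X, Syn3 on 10 and Syn2 on 6), and Timp2 on chromosome 11 lies in none.

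The choice of scaling together with its offset bears on these values. When the deposited values plus the offset were centred on the median log2 value of each array, which moved the median difference of all probe sets on MG_U74Av2 to 0.26, Timp1 was called as higher in the CD34+ RNAs (0.41, limma adjusted p = 0.00710). In that setting the calls of Timp2 (-0.26, adjusted p = 0.0630) and Adam9 (-0.03, adjusted p = 0.865) were lost, and those of Mmp14, Mmp11, Mmp13 and Timp3 were kept. With the same centring and no offset, a setting added after those values were seen, Timp2 kept its call. Timp1 was not called there (-0.11, limma adjusted p = 0.535), and the median difference of all probe sets was 0.03.

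Differences between members were compared within RNAs for 4 pairs, chosen after their values were seen. Timp3 fell by 1.21 more than Timp1 on the log2 scale, Timp2 (MG_U74Av2) by 0.69 more than Timp1, and Adam9 by 0.35 more than Adam10, each without overlap between the groups. In an exact two-sided permutation test each of the 3 gave p = 0.1, the smallest p that 3 against 3 allows, and 0.133 after adjustment over the 4 pairs. Mmp14 minus its inhibitor Timp2 differed by -0.27, with overlap (exact permutation p = 0.2, adjusted 0.2). For each called member alone the exact permutation p was likewise 0.1. Groups without overlap always give this p, and the pairs and called members were picked from these same values. These permutation p-values therefore lend the differences no support.

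Adam9 (meltrin gamma), a widely expressed membrane protease, read 1174, 1125 and 1044 in the CD34+ RNAs and 1518, 1342 and 1803 in the CD34- RNAs. The groups did not overlap, at 1114 ± 65.9 and 1554 ± 232. The difference was -0.45 (SE 0.132, limma adjusted p = 0.0497), at the edge of the threshold. The call was lost without CD34+ RNA 1, 2 or 3 (adjusted p = 0.0920, 0.127 and 0.145) and without CD34- RNA 1 or 3 (0.115 and 0.0977), and was kept only without CD34- RNA 2.

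Adam10 and Adam17 are the main sheddases of Notch, of growth factors and of tumour necrosis factor. A first Adam10 probe set read 1107, 1287 and 1172 against 1180.2, 1241 and 1418, and a second 1029, 1039 and 903 against 926, 895 and 1147. Both overlapped, with differences of -0.10 and 0.01 (limma adjusted p = 0.624 and 0.980). Adam17 was dimmer, at 255, 75.3 and 161 against 85.2, 206 and 247, and its difference of -0.12 had an adjusted p of 0.872.

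Other ADAMs with a protease site were not called. Adam15, an ADAM with an integrin-binding motif, read 607, 544 and 553 against 771, 643 and 835 on MG_U74Av2, lower in the CD34+ RNAs without overlap (difference -0.37, limma adjusted p = 0.121). A second Adam15 probe set on MG_U74Bv2 read 561, 559 and 339 against 147, 439 and 642, which overlap (0.31, adjusted p = 0.755), and another on MG_U74Cv2 was removed at 24.2 to 395. Adam19 (meltrin beta) read 244, 302 and 346 against 409, 280.3 and 523, with overlap (-0.36, adjusted p = 0.339). Adam28, known from lymphocytes, read 1898, 1738 and 1352 against 1684, 2115 and 1443 (-0.07, adjusted p = 0.832) by a probe set chosen under relaxed rules (suffix _r).

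Adam12 (meltrin alpha), a protein of fusing muscle cells and of bone, was removed by the filter at 51.3, 70.1 and 53.0 in the CD34+ RNAs and 189, 142 and 142 in the CD34- RNAs. It is named after its values were seen. Its groups did not overlap, and with no filter it was called (difference -0.93, limma adjusted p = 0.0320). Adam8, an ADAM of macrophages and osteoclasts, was removed at 50.2 to 161, also lower in the CD34+ RNAs without overlap, and Adam33 at 35.1 to 81.1.

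Adam11, Adam22 and Adam23 are ADAMs of nerve cells that lack a working protease site. Adam22 on MG_U74Bv2 read 399, 251 and 339 against 489.9, 614 and 483, without overlap (difference -0.55, limma adjusted p = 0.318). The probe sets of Adam23 pointed in different directions, with 349, 347 and 131 against 243, 156 and 146 on MG_U74Av2 (0.42, adjusted p = 0.446) and 132, 176 and 54.6 against 219, 272 and 281 on MG_U74Bv2. The latter was removed by the filter. Both Adam11 probe sets were removed, at 61.1 to 303. A second Adam22 probe set of MG_U74Bv2 read 58.6, 113 and 107 against 31.3, 50.3 and 85.2, and one on MG_U74Av2 read 63.6 to 113. Both of these overlapped and were removed as well.

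ADAMs of the testis and epididymis, which are known from sperm, made up 11 genes and 17 probe sets, of which 5 passed the filter. Those that passed were often probe sets of relaxed design whose partners were dim. Adam5 read 1341, 1011 and 1369 in the CD34+ RNAs and 1828, 3018 and 1628 in the CD34- RNAs by an _r probe set, without overlap (difference -0.74, limma adjusted p = 0.0543). It was called as lower under 4 alternatives, among them the one without CD34- RNA 3 (-0.91, adjusted p = 0.0282). A second Adam5 probe set of the same chip type read 11.0 to 20.1, and one on MG_U74Cv2 read 36.5 to 89.6. For Adam3 an _r probe set read 518, 318 and 431 against 534, 647 and 356 (-0.24, adjusted p = 0.544), and its partner 4.86 to 15.7. Whether these bright probe sets measure the named gene was not tested.

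On MG_U74Cv2, Adam18 read 971, 134 and 600.2 against 277, 633 and 485 (0.04), Adam39 291, 215 and 425 against 524, 357 and 347 (-0.33), and Adam32 231, 262 and 406 against 234, 454 and 293 (-0.09). All 3 overlapped, with limma adjusted p of 0.858 to 0.992. A second Adam39 probe set (means 26.8 and 24.7) and one of Adam32 on MG_U74Bv2 (56.5 to 112) were removed by the filter.

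**Figure D3:**
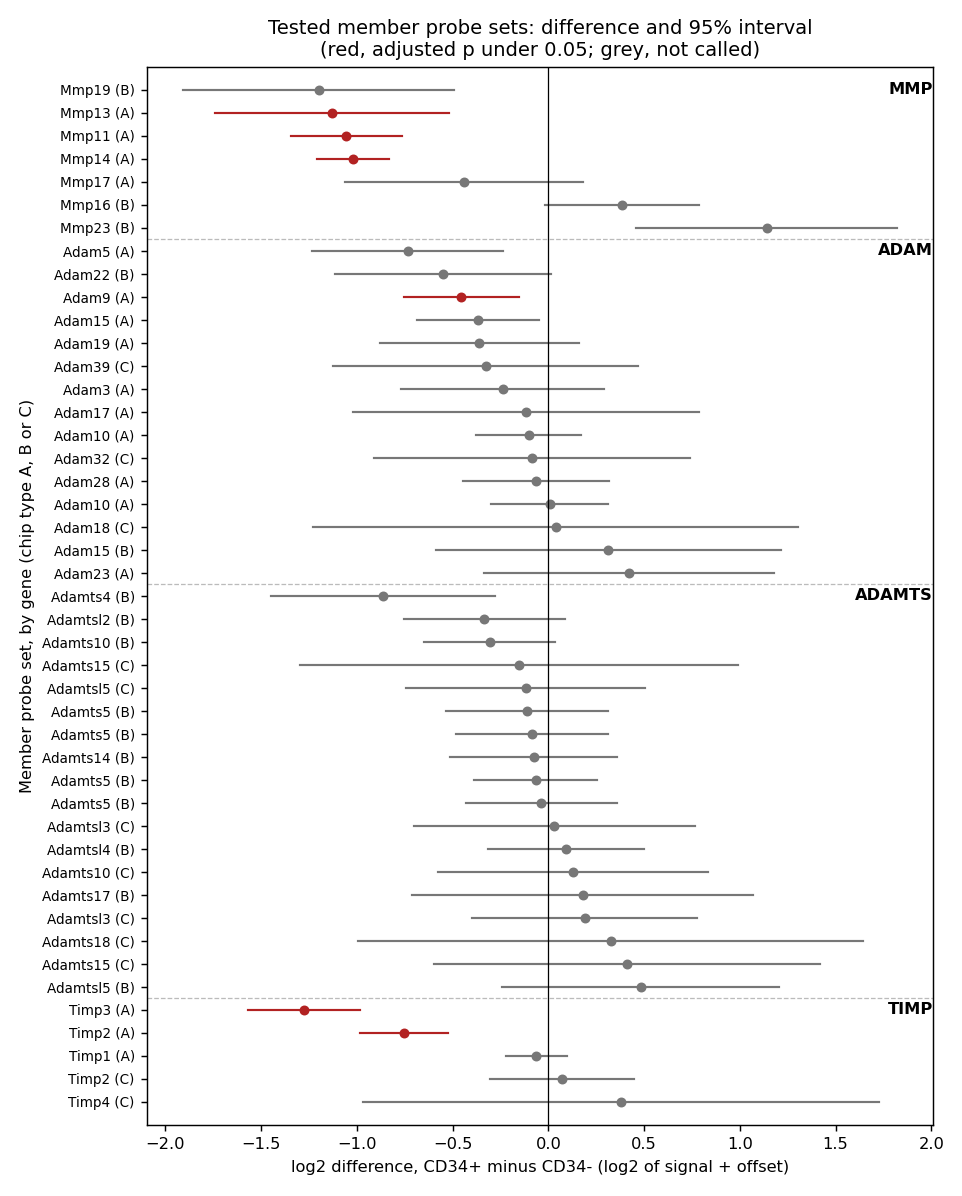
Difference between CD34+ and CD34- RNAs (log2 scale) with its 95% interval for each of the 45 tested member probe sets, grouped by family and ordered by size. The 6 called probe sets (red) all lie to the left of 0, and the 18 ADAMTS and ADAMTS-like probe sets are all grey.

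No ADAMTS or ADAMTS-like probe set was called by limma among the 18 tested, for 11 of 14 genes, where MG_U74Bv2 and MG_U74Cv2 called 1.09% and 0.0936% of all probe sets. Of the 18, 1 (Adamts4) had an unadjusted p under 0.05, a count given without the share of all probe sets. Adamts4 and Adamts5 are the aggrecanases, which cut the proteoglycans aggrecan and versican. Adamts4 read 501, 453 and 263 in the CD34+ RNAs and 651, 926 and 864 in the CD34- RNAs. These did not overlap (difference -0.87, 95% interval -1.45 to -0.28, limma adjusted p = 0.144).

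Adamts5 was read by 6 probe sets on MG_U74Bv2, of which 4 were tested. The brightest gave 4058, 3354 and 3785 against 4784, 3898 and 2982, the next 2123, 1844 and 1839 against 1792, 2218 and 2088. The third gave 1682, 1684 and 1913 against 1708, 2406 and 1589.7, and the fourth 688, 869 and 903 against 991, 892 and 794. All 4 overlapped, with differences between -0.11 and -0.04 (limma adjusted p = 0.815 to 0.944) and 95% intervals that reach from -0.53 to 0.36. The remaining pair, at 79.8 to 268, was removed by the filter.

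Of the enzymes that trim procollagen or act on microfibrils, Adamts14 read 1075, 1199.6 and 1112 against 1199.6, 929.5 and 1521 (difference -0.08, limma adjusted p = 0.884). Adamts10 read 1810.4, 1357 and 1698 against 2019, 1885 and 2156 on MG_U74Bv2, lower in the CD34+ RNAs without overlap (-0.31, adjusted p = 0.357). On MG_U74Cv2 the same gene read 607, 504 and 546 against 686, 446 and 394, with overlap (0.13, adjusted p = 0.938). Adamts17 read 641, 400.4 and 241 against 165, 480.3 and 463, with wide spread in both groups.

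Adamts15 and Adamts18, further secreted proteases of the family, varied more within the groups than between them. A first Adamts15 probe set read 420.0, 184 and 760.2 against 253, 238 and 355, and a second 327, 149 and 668 against 231, 324 and 696. Adamts18 read 1151, 381 and 214 against 301, 743 and 185. Their differences were 0.41, -0.15 and 0.33, with limma adjusted p of 0.861 to 0.955. Adamts1 (20.5 to 44.7) and Adamts12 (61.1 to 334, lower in the CD34+ RNAs without overlap) were removed by the filter.

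ADAMTS-like proteins share the matrix-binding parts of the family and lack the protease part. Adamtsl4, which binds fibrillin microfibrils, read 3179.6, 4116 and 4070.1 against 3978, 4053 and 2708 (difference 0.09, limma adjusted p = 0.844). Adamtsl2 read 1579, 1581 and 1058 against 2022, 1647 and 1671, lower in the CD34+ RNAs without overlap (-0.33, adjusted p = 0.409). Neither was called, and the groups of the first overlapped.

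Adamtsl3 was read by a pair of probe sets, at 764, 1057 and 499.6 against 657, 632 and 913 and at 703, 772 and 807 against 684, 709.6 and 573, both with overlap. Adamtsl5 read 637, 842 and 915 against 448, 342 and 958 on MG_U74Bv2 (0.48, limma adjusted p = 0.492) and 1042, 875 and 1507 against 1538, 1049 and 1116 on MG_U74Cv2 (-0.12, adjusted p = 0.937). Its probe sets differed in sign, and both overlapped. The 3 probe sets of Adamtsl1 were removed, at 49.3 to 504.

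Over the tested members, 8 of 17 on MG_U74Av2 were lower in the CD34+ RNAs without overlap (all tested probe sets, 15.7%) and 0 were higher (all, 18.8%). Mmp13 is 1 of the 8. On MG_U74Bv2, 5 of 16 were lower (all, 10.2%) and 2 higher (all, 12.8%). On MG_U74Cv2, 0 were lower (all, 6.71%) and 0 higher (all, 7.41%). The 39 probe sets that were not called had differences from -1.20 to 1.14. With each gene represented by 1 probe set, 6 of the 35 tested genes fell, Mmp13 included, and 0 rose, and 23 genes had no tested probe set. Timp2 is among the 6 by its MG_U74Av2 probe set, and its tested probe set on MG_U74Cv2 was not called (0.07, limma adjusted p = 0.937). Over all 11969 genes so represented, 3.51% fell and 4.39% rose.

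Of the 46 removed probe sets, 6 were lower in the CD34+ RNAs without overlap and 3 higher. Over all 13849 removed probe sets of the 3 chip types, 6.21% were lower and 5.64% higher in this way. The former were Adam8, Adam12, Adam23, Adamts12, Mmp27 and Mmp28, and the latter Mmp9 and Adam6b on MG_U74Cv2 and Mmp16 on MG_U74Av2. Mmp27, a little studied relative of the stromelysins, read 21.6, 9.96 and 38.4 against 206, 187 and 114. With no filter its difference was -1.08 (limma adjusted p = 0.0850), and it was not called.

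Mmp13 and Mmp27 lie in a cluster of 10 MMP genes on mouse chromosome 9, of which 7 are on the arrays. The other 5 with probe sets, Mmp12, Mmp3, Mmp10, Mmp8 and Mmp7, were removed by the filter and overlapped between the groups. Adam9 lies next to Adam32, Adam5, Adam3 and Adam18 on chromosome 8. Of their 8 probe sets, only the _r probe set of Adam5 was lower in the CD34+ RNAs without overlap.

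Genes that activate, accompany or inhibit the proteases were described from a list of 31, of which 22 were tested. Of these 5 rose (22.7%), 3 fell (13.6%) and 14 were not called, with a median difference of 0.10 against 0.02 for all genes. Of all genes, pooled over the chip types, 4.39% rose and 3.51% fell. Most tested genes of the lists, and all called ones, were read on MG_U74Av2. There 8.21% of all tested probe sets rose and 6.69% fell, which is the closer background. With an offset added and arrays centred on their medians, 10 rose and 0 fell. With the same centring and no offset, 4 rose and 1 fell. These settings have their own background. On MG_U74Av2, 2750 of all 7634 tested probe sets rose and 279 fell in the former, and 559 rose and 412 fell in the latter. Plaur, the receptor that holds urokinase at the cell surface, rose, at 826, 801 and 734 in the CD34+ RNAs against 347, 510.5 and 404 (0.84, limma adjusted p = 0.00821). Tspan5, a tetraspanin that escorts Adam10, rose from 315, 333 and 410.3 in the CD34- RNAs to 615, 664 and 585 (0.74, adjusted p = 0.0118). The other 3 that rose were Cd44, which docks MMPs at the membrane (0.50), Cav1 of caveolae (0.45) and the tetraspanin Cd9 (0.38).

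Thbs2, a matrix protein that helps cells take up Mmp2, fell, at 4658, 4869 and 3877 against 7683, 6936 and 9149.7 (-0.82, limma adjusted p = 0.00299). The plasminogen activator Plat fell by 0.55 and the uptake receptor Lrp1 by 0.31 (limma adjusted p = 0.0374 and 0.0338). Furin, which activates Mmp11 and Mmp14, had a difference of 0.08 and an adjusted p of 0.63, and Reck, a membrane-bound MMP inhibitor, 0.47 with an adjusted p of 0.58. The count for this list fell from 8 to 3, 2 and 5 without CD34+ RNA 1, 2 and 3, and to 4 without CD34- RNA 1 or 2. Thbs2 and Plaur were not among the genes lost in those fits. Lrp1, Cd44 and Cd9 were lost in each of them, and Plat in all but the one without CD34+ RNA 3. Cav1 was lost without CD34+ RNA 1 or 2, and Tspan5 without CD34+ RNA 2. Lrp1 was also lost without CD34- RNA 3.

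Other metallopeptidases of the cell surface and matrix were listed together with Pcolce and Pcolce2, which are no proteases themselves. Of the 28 listed symbols 15 were tested. Of these 3 fell (20%, Pcolce included), 1 rose (6.67%) and 11 were not called (median -0.11), beside 3.51% and 4.39% of all genes. On MG_U74Av2, which read every called gene of this list, 6.69% of all tested probe sets fell and 8.21% rose. In the centred setting with an offset 3 rose and 0 fell, and with no offset 1 rose and 3 fell. The background of these settings is that given with the activators and partners. Cpe, a carboxypeptidase of secretory granules, read 8819.7, 9865 and 9989.9 in the CD34+ RNAs against 15911, 15462 and 15255 (-0.70, limma adjusted p = 0.00043). Pcolce, which speeds the trimming of procollagen by Bmp1, read 9832, 9463 and 11134 against 15574, 15053 and 16376 (-0.63, adjusted p = 0.00131). The carboxypeptidase Cpq fell by 0.74 and the metallopeptidase Nrd1 rose by 0.58. Bmp1 itself had a difference of -0.28 and an adjusted p of 0.19.

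Substrates of ADAM shedding were tested for 30 of 38 listed genes. Of these 5 fell (16.7%), 3 rose (10.0%) and 22 were not called (median -0.08). Of all genes, 3.51% fell and 4.39% rose. Every called gene of the list was read on MG_U74Av2, where 6.69% of all tested probe sets fell and 8.21% rose. In the centred setting with an offset 9 of the list rose and 3 fell, and with no offset 3 rose and 5 fell. With an offset, 2750 of all 7634 tested probe sets of MG_U74Av2 rose and 279 fell. App, the amyloid precursor protein, read 5300.4, 4855 and 5354 against 11048, 10564 and 12755 (-1.14, limma adjusted p = 0.000132). The chemokine Cx3cl1, which Adam10 and Adam17 release, read 558, 814 and 667 against 1380.2, 1354 and 1197 (-0.91, adjusted p = 0.00459).

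Kitl, the membrane-bound growth factor for blood stem cells and mast cells, fell by 0.63, Tnfrsf1b by 0.58 and the prion protein gene Prnp by 0.55. Cdh2, the cadherin that Adam10 cuts, rose from 755, 811 and 792 in the CD34- RNAs to 1350.2, 1502 and 1241 (0.75, limma adjusted p = 0.00364). Hbegf, a growth factor released by shedding, and Cd44 rose by 0.50 each. Without CD34+ RNA 1 or 3 the count for this list was 5, not 8, and Kitl, Hbegf and Cd44 were lost.

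Matrix substrates of MMPs and ADAMTS proteases were tested for 14 of 27 listed symbols. Of these 1 fell, 1 rose (7.14% each) and 12 were not called (median -0.24). The shares of all genes were again 3.51% and 4.39%. On MG_U74Av2, which read both called genes, 6.69% of all tested probe sets fell and 8.21% rose. The centred setting with an offset gave 4 that rose and 2 that fell, and with no offset 1 rose and 1 fell. As for the other lists, 2750 of all 7634 tested probe sets of MG_U74Av2 rose with an offset and 279 fell. Sparc, a collagen-binding matrix protein, read 12809.5, 12508 and 11617 against 16376, 17402 and 19339.7 (-0.52, limma adjusted p = 0.00308). Tnc, the matrix protein tenascin C, read 2899, 3071 and 3175 against 1659, 1735 and 1937 (0.76, adjusted p = 0.00163).

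**Figure D4:**
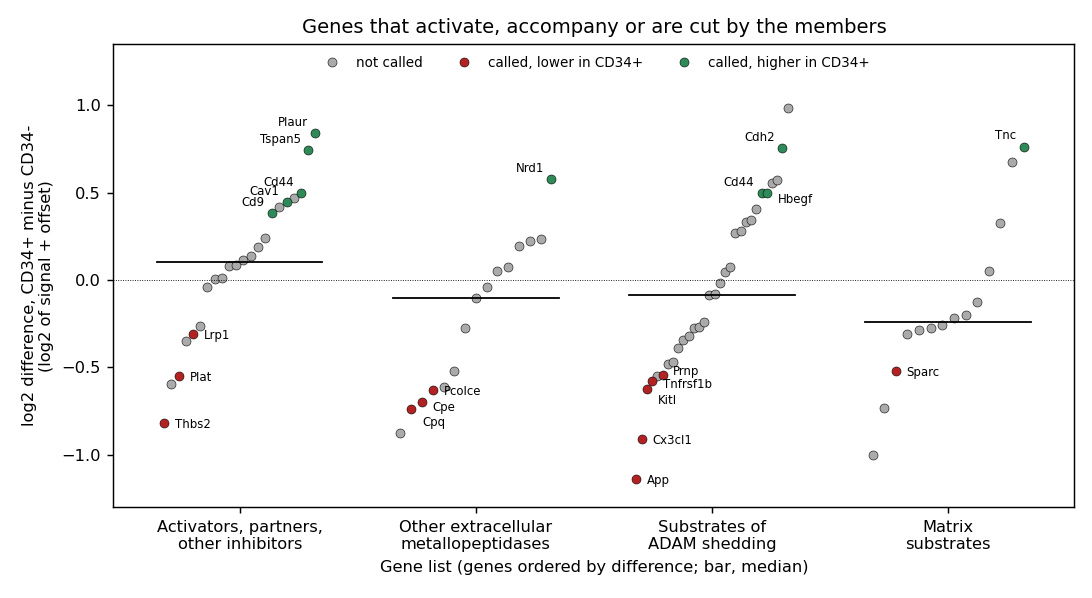
Difference between CD34+ and CD34- RNAs (log2 scale) for the tested genes of the 4 lists, each list ordered by size with a bar at its median. Called genes are named, with lower ones in red and higher ones in green, and each list holds genes called in both directions under quantile normalization.

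Several stromal marker genes moved with the groups as well. On MG_U74Av2, 6 of 9 tested stromal markers fell in the CD34+ RNAs (Col1a1, Col1a2, Col3a1, Cxcl12, Eng and Pdgfra). Of all tested probe sets there, 6.69% fell and 8.21% rose. Pdgfrb (-0.63), Vcam1 (-0.32) and Nt5e (-0.20) were not called. The summed signal of all 11 stromal markers was 53752 to 57549 against 102268 to 109847. Most of that sum came from Col1a1 and Col1a2, so it mainly reads collagen I. Lepr and Thy1 were below the limit on all arrays. The sum of endothelial markers was 339 to 503 against 534 to 739, with 4 of 6 below the limit on all arrays. Macrophage and osteoclast markers summed to 3184 to 3573 against 2889 to 3928. Of these, 6 of 10 were below the limit on all arrays (Acp5, Adgre1, Calcr, Itgam, Lyz2 and Ptprc). Cd14 (1509 to 2492), which gave most of the sum, Csf1r (611 to 786) and Cd68 (247 to 303) were above it on all arrays. Tnfrsf11a was above it on some arrays, and none of the tested markers of this list was called. Neutrophil (1028 to 1489.7 against 1358 to 1701), lymphoid (310.1 to 515 against 283 to 665) and erythroid markers (419 to 706 against 143 to 497) overlapped.

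The ratio of 3′ to 5′ signal of Gapdh, a sign of RNA quality, was 0.747 ± 0.041 in the CD34+ and 0.818 ± 0.015 in the CD34- RNAs on MG_U74Av2, without overlap, and the groups overlapped on the other chip types. The same ratio for beta-actin was 1.07 ± 0.031 against 1.15 ± 0.050 on MG_U74Av2 and 0.977 ± 0.038 against 1.03 ± 0.002 on MG_U74Cv2, both without overlap, and overlapped on MG_U74Bv2 (means 1.09 and 1.10). RNA concentration per the labels was 0.421 to 0.721 µg/µl for CD34+ and 0.989 to 1.38 µg/µl for CD34- RNAs. The part of these measures in the differences of the members was not tested.

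Arrays were washed on either of 2 fluidics stations, per the array files. On MG_U74Av2, station 1 held 1 array of each group and station 2 held 2 of each. With the station as a block 6 members were called, beside 12.9% of all tested probe sets. Between the single arrays of station 1 the differences were -0.97 for Mmp14, -1.18 for Mmp11, -1.51 for Mmp13, -1.64 for Timp3, -0.79 for Timp2 and -0.60 for Adam9. Within station 2 they were -1.04, -0.99, -0.94, -1.10, -0.73 and -0.38, of which limma still called Mmp14, Mmp11, Timp3 and Timp2 (adjusted p = 0.00409, 0.0161, 0.00430 and 0.0198). Mmp13 and Adam9 had adjusted p of 0.122 and 0.131 there. On the other chip types station 2 held CD34- arrays only.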

How the data were processed

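Per the submitters' processing notes, MAS5 was used to make the deposited values, which are linear intensities for each probe set. Its version is not given in the sources used here. The deposited intensities of the CD34+ arrays lay above those of the CD34- arrays by a factor of 14.1 to 19.6 (MG_U74Av2), 44.9 to 56.0 (MG_U74Bv2) and 83.8 to 120.1 (MG_U74Cv2), judged by the mean trimmed by 2% at each end, so the groups were not on a common scale as deposited. The 6 arrays of each chip type were therefore quantile normalized with limma 3.58.1 in R 4.3.3, after 66 control probe sets were left out. This assumes that the groups share a distribution of signals. An offset at the 20th percentile of the chip type was added before log2.

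Chip types were fitted separately (lmFit, eBayes with intensity trend, group as the only term), two-sided, with Benjamini-Hochberg adjustment over all tested probe sets. Groups came from the sample titles. All 58 member symbols matched the RefSeq gene table by Entrez identifier and 0 were renamed. On data simulated for MG_U74Av2 (7634 probe sets), 66% of changes of 1 and 93% of changes of 2 on the log2 scale were recovered. For MG_U74Bv2 (7737 probe sets) these were 42% and 82%, and for MG_U74Cv2 (7481 probe sets) 13% and 64%. The simulated noise was normal and independent between probe sets. On MG_U74Av2 the simulation gave 168 calls, 9 of them false, while limma called 1138 probe sets in the data. With so unlike a number of changes, these shares need not hold for the data.

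Member genes called on any chip type, the TIMPs and the 10 further probe sets with the highest mean signal on each chip type were to be named, with all probe sets of a named gene. Of each list, all called genes were to be named where there were 5 or fewer, and otherwise the 4 with the largest difference in each direction. Mmp2, Mmp9, Mmp23, Mmp27, Adam11, Adam12, Adam22, Adamts4, Adamts17 and the genes named without a call were added after their values were seen. The members and gene lists were chosen with earlier results of these data known. In a list, a gene is represented by its brightest tested probe set on the first chip type that has one. Alternatives were other scalings, offsets, filters, no intensity trend, the station or replicate number as a block, and each RNA left out in turn.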

Additional observations from a re-analysis of the deposited data

How the results depend on the processing

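Results were recomputed under other scalings, offsets, filters and fits. The offset was taken anew from the values of each scaling, at the 20th percentile unless stated. Without any scaling of the deposited values, which leaves the groups on different scales (median difference of all probe sets 3.70 on MG_U74Av2), all tested members were called as higher in the CD34+ RNAs, 17, 16 and 12 on the 3 chip types. So were 99.9%, 100% and 100% of all tested probe sets. The lists then gave 22, 15, 30 and 14 calls, all higher. The differences were 3.41 for Adam9, 2.08 for Mmp13, 2.78 for Mmp11, 2.93 for Mmp14, 3.84 for Timp1, 3.18 for Timp2 (MG_U74Av2) and 2.68 for Timp3, all reversed in sign.

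Centring the log2 of deposited values plus an offset, taken anew from the unscaled values, on each array's median also changed calls. This moved the median difference of all probe sets on MG_U74Av2 to 0.26, and the share of higher calls there from 55.1% to 90.8%. Of all tested probe sets, 39.7% were called on MG_U74Av2 and 25.8% on MG_U74Bv2, against 14.9% and 1.09% under quantile normalization. Members called on MG_U74Bv2 went from 0 to 5 (Mmp23, Mmp16, Adamtsl4 and a probe set of Adamts5 higher, Mmp19 lower), and matrix substrates from 2 to 6 (4 higher, 2 lower). The other lists gave 10 higher and 0 lower (activators and partners), 3 and 0 (other metallopeptidases) and 9 and 3 (ADAM substrates). On MG_U74Av2 the count stayed at 6 but Timp1 (0.41, reversed, limma adjusted p = 0.00710) and Adam10 (0.38) were called as higher, and the calls of Timp2 (-0.26) and Adam9 (-0.03) were lost. Relative to that median shift, Timp1 differed by 0.15, Timp2 by -0.52 and Adam9 by -0.29. The same centring with no offset was added after these values were seen. It gave a share of higher calls of 57.6% and kept the calls of Mmp14, Mmp11, Mmp13, Timp3 and Timp2, while Adam9 was lost (adjusted p = 0.0867). The lists then gave 4 higher and 1 lower (activators and partners) and 1 and 3 (other metallopeptidases). For ADAM substrates these were 3 and 5, and for matrix substrates 1 and 1. The cause of the change was not tested beyond that pair of fits.

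For Timp2 on MG_U74Cv2, the difference was -0.072 with arrays scaled to a common median and -0.073 when centred with no offset. For Timp4 it was -0.33 with the station as a block. Leaving out 1 RNA gave Timp4 values from -0.20 (without CD34- RNA 2) to 0.73, and -0.08 without CD34+ RNA 3. The list of activators and partners went from 8 calls to 5 with a common median, 5 when centred with no offset, 4 without the intensity trend and 5 with the replicate block. The cause was not tested.

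With 1 RNA left out, the members called numbered 4 to 6 for MG_U74Av2, where 8.37% to 16.1% of all tested probe sets were called. The members called numbered 0 to 1 for MG_U74Bv2 (all, 0.0258% to 1.27%) and 0 to 0 for MG_U74Cv2 (all, 0% to 0.0134%). The lists gave 2 to 7 (activators and partners), 4 to 5 (other metallopeptidases), 5 to 8 (ADAM substrates) and 2 to 2 (matrix substrates) calls. Adam9 also lost its call with a common median, an offset of 1, no filter and no trend (adjusted p = 0.0504 to 0.0854). With the replicate block 5 members were called on MG_U74Av2, beside 12.5% of all tested probe sets, and Adam9 was lost (adjusted p = 0.0793). The replicate numbers are not stated to pair the RNAs, and the deviations of same-numbered RNAs correlated at -0.05 to 0.07 over the 3 chip types. The _r probe set of Adam5 was called as lower with a common median (adjusted p = 0.0476), when centred with no offset (0.0492), with all 6 arrays above the limit (0.0402) and without CD34- RNA 3 (0.0282). Mmp13 was not tested where all 6 arrays had to lie above the limit. Mmp14, Mmp11 and Timp3 kept their calls under every alternative except the one without scaling. Of the values for the called members and the TIMPs, 128 kept direction and side of the threshold, 17 lost their call, 2 gained one and 13 reversed.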
